A study of Mus musculus with 2 samples.

Results

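Granzymes and the proteins stored with them form the cytotoxic granule of T cells and natural killer (NK) cells. The 8 genes described here are 4 granzyme genes (Gzma, Gzmb, Gzmk and Gzmm), the pore former Prf1, the granule proteoglycan Srgn, the granule membrane protein Nkg7 and the cathepsin gene Ctsw. They were taken by gene symbol, as every probe set that the platform annotation gives to exactly 1 gene with 1 of these names, which yielded 9 probe sets for 8 of the 18201 genes on the array. Prf1 had 2 probe sets and each of the other genes had 1. The data come from splenic regulatory T cells (Tregs, CD4+ cells that express the transcription factor Foxp3) sorted by flow cytometry from 10-week-old C57BL/6 mice. The DNR array holds RNA of Tregs from animals with a dominant negative TGF-beta receptor II, which blocks the cell's response to TGF-beta, and the WT array holds RNA of Tregs from wild-type animals. Both groups were naive animals with no further treatment in the labels. The promoter that drives the DNR receptor, the number of mice behind each RNA and the way Foxp3 was detected are not stated in the labels. Whether other cells of the DNR mice carry the receptor is likewise not stated.

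Cytotoxic granules are secretory lysosomes. Perforin, the product of Prf1, makes pores through which granzymes, which are serine proteases, reach the cytosol of a target cell, and serglycin, the product of Srgn, is the proteoglycan that packs them in the granule. Granzyme B cuts after aspartate and activates caspases, whereas granzyme A cuts after basic residues. In Tregs granzyme B is known from mouse work as a means of suppressing other cells, and TGF-beta is known in mouse CD8 T cells as a repressor of Gzma, Gzmb and Prf1.

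With 1 array per genotype, each difference is one between a pair of RNA samples, and neither a p-value nor an SD between replicates can be given. Values are MAS5 signals on a linear scale. A signal of 110.9, the higher of the medians of the arrays, served as a floor. It is the median of the DNR array, and that of the WT array was 91.0. Lower signals were raised to the floor before a ratio was taken. On the DNR array alone 1815 genes were above the floor, against 834 on the WT array alone. Where only 1 array was above the floor, the fold is a lower bound and is given as "at least". The only error that these files allow is how far the probe sets of a gene differ from each other, which had a robust SD of 0.39 on the log2 scale over 3968 genes and holds no variation between mice, sorts or hybridisations. Both arrays had a mean signal of 500.0 after the top and bottom 2% were trimmed, and the log2 ratio of the median gene above the floor on both arrays was -0.03. All 18 hybridisation spike-in probe sets had the higher signal in the DNR sample, with a median fold of 1.95. Markers of Tregs and CD4 T cells (10 genes) were all above the floor on both arrays, with 5 higher and 5 lower on the DNR array and none past 2-fold. Over all genes above the floor on at least 1 array, 4.0% were at least 2-fold higher and 2.93% lower. None of 10 therefore says little about this list.

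The promoters of the 4 genes that were at least 2-fold higher on the DNR array are printed here, since the results turn on these genes. They share a direction because that is how they were picked, and Gzmk and Nkg7 were close to the threshold. Each is the RefSeq sequence from 250 bases before to 50 bases after the annotated start, on the GRCm38.p6 build. It is given 5′ to 3′ on the strand of the gene, and capitals mark each match on either strand to 1 of 6 motifs: TGACGTCA (CRE), TGACG (short CRE), TGANTCA (AP-1), TGTGGT (Runx), GGTGTG (T-box) and CAGAC (Smad). A promoter entry was found for 7 of the 8 genes.
Gzma, chr13:113100932-113101231, minus strand: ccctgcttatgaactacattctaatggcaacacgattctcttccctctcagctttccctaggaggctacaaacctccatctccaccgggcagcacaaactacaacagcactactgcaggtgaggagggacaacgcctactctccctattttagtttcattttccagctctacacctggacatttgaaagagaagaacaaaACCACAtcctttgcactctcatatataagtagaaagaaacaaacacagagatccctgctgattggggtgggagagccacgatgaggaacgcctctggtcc
Gzmb, chr14:56262285-56262584, minus strand: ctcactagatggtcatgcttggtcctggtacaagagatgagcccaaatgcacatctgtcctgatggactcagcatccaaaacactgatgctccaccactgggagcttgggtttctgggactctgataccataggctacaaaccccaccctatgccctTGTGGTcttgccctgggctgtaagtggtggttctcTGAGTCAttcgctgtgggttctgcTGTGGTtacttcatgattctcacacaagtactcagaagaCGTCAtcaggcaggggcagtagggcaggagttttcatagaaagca
Gzmk, chr13:113180916-113181215, minus strand: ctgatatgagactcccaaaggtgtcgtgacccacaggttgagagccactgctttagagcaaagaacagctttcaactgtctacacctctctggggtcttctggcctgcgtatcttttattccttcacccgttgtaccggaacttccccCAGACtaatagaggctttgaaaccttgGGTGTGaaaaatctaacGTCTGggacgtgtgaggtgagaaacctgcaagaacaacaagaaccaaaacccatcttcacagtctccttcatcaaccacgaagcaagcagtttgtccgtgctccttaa
Nkg7, chr7:43436888-43437187, plus strand: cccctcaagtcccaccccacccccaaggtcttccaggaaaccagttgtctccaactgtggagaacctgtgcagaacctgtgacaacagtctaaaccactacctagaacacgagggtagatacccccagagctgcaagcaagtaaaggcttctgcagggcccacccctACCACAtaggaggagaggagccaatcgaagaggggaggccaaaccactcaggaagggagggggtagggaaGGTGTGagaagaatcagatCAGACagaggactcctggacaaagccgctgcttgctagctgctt

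The Gzmb promoter held 1 AP-1 match at position -58 from the start site, Runx matches at -93 and -34, and 1 short CRE match at 6 after the start. Positions give the first base of the match on the gene's strand. AP-1, Runx and CRE-binding factors are known regulators of granzyme B transcription in T cells. The Gzma promoter held 1 match, Runx at -50. In Gzmk, which had no Runx match, there were Smad matches at -102 and -58 and a T-box match at -75. Nkg7 had Runx at -83, T-box at -13 and Smad at 7 after the start. No matches overlapped in any window of these genes, and the full CRE was in none.

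Over the 7 genes with a promoter entry, the Runx letters occurred in 6, the T-box, Smad and short CRE letters in 3 each and the AP-1 letters in 1. Counted over their 9 windows, Runx was in 6, Smad in 4, T-box and the short CRE in 3 each and AP-1 in 1. Of all 32851 promoter windows of this length, 16.8% held the Runx letters, 19.0% the T-box letters, 49.6% the Smad letters, 20.8% the short CRE, 7.81% the AP-1 letters and 1.79% the full CRE. Srgn and Gzmm had 2 windows each, which gives a gene more chances of a match. The Runx letters were also present in a window of Gzmm, whose transcript was not above the floor on either array, and in Prf1 and Srgn, which differed by less than 2-fold. A match does not show that a factor binds.

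Of the 8 genes 7 were measured, meaning that the gene's brightest probe set, by its mean signal, exceeded the floor in at least 1 sample. Of the 7 genes, 4 were at least 2-fold higher on the DNR array (Gzma, Gzmb, Gzmk and Nkg7). Of all 11931 genes measured, 4.0% were at least 2-fold higher in DNR Tregs. At least 2-fold lower was 1 gene, Ctsw, against 2.93% of all genes. Srgn and Prf1 were between these limits. The median log2 ratio of the 7 genes was 1.02, against 0.01 for all genes measured. The genes were picked with results of these data known, so these counts describe the arrays and do not support a direction.

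**Figure D1:**
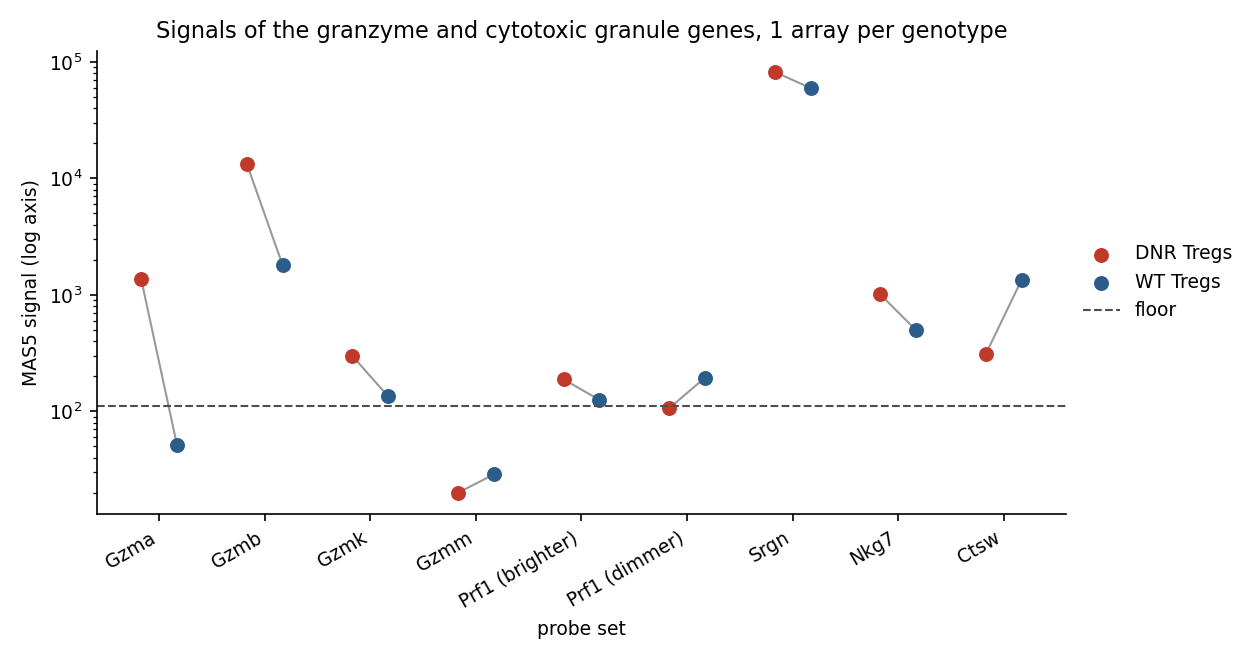
MAS5 signal (log axis) of each of the 9 probe sets on the DNR array (left point, red) and the WT array (right point, blue), with the floor of 110.9 as a dashed line and 1 array per genotype. Gzma, Gzmb, Gzmk and Nkg7 have the higher signal on the DNR array, Ctsw has the higher signal on the WT array, and the 2 probe sets of Prf1 run in opposite directions.

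Granzyme B carried a large difference at a high signal. The Gzmb probe set 1419060_at had a signal of 13369 in DNR Tregs and 1793 in WT Tregs, a 7.46-fold higher signal. In bulk RNA, more cells with a transcript and more transcript per cell cannot be told apart. Both values were well above the floor, by 121-fold for DNR and 16.2-fold for WT Tregs. Among the 9282 genes that exceeded the floor in both samples its ratio was rank 1 from the top. Large ratios were rare at this brightness: of 601 genes with a mean signal of at least 7098, 6 (1.0%) were at least 2-fold higher on the DNR array.

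Granzyme A, a tryptase of the granule, was above the floor on the DNR array alone. This held for 1815 of the 11931 genes measured, against 834 above it on the WT array alone. Gzma (1417898_a_at) had a signal of 1361 in DNR Tregs and 50.9 in WT Tregs, where it was below the floor. The difference was therefore at least 12.3-fold. With signals raised to the floor this was rank 1 from the top among all 11931 genes measured and Gzmb was rank 2, but many of these ratios are lower bounds and the order depends on the floor. The unfloored signals differed by 26.8-fold, a value that rests on a WT signal below the floor, and 111 of the measured genes had a larger unfloored ratio than Gzma. The suffixes _a, _s and _x were treated here as able to bind several transcripts, which for _a may all be of the same gene. Gzma has no other probe set on the array, so the value rests on 1 probe set.

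Granzyme K, which like granzyme A cuts after basic residues, lay close to the floor. Gzmk (1422280_at) had 299.0 in DNR Tregs and 134.0 in WT Tregs, a 2.23-fold higher signal, rank 170 from the top of those 9282 genes. The WT value was 1.21 times the floor. Of the 1019 genes with a mean signal between 110.9 and 221.8, 41 (4.02%) were at least 2-fold higher, a bin whose ratios are limited because both signals must exceed the floor. Gzmk lay near the upper edge of this bin. In the next bin, from 221.8 to 443.6, 124 of 1630 genes (7.61%) were at least 2-fold higher. With the floor at the 60th percentile its log2 ratio was 0.84, under 2-fold.

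Granzyme M, which is best known from NK cells and prefers to cut after methionine and leucine, was not above the floor on either array. Gzmm (1449501_a_at) had 20.0 in DNR Tregs and 28.7 in WT Tregs, so no ratio is given. The 4 granzymes thus split into Gzmb, above the floor on both arrays with a wide difference, Gzma on the DNR array alone, Gzmk near the floor, and Gzmm below it.

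Perforin had no settled direction. The chosen Prf1 probe set (1450335_at) had 188.1 in DNR Tregs and 125.5 in WT Tregs, 1.5-fold higher. The second (1451862_a_at) can bind several transcripts, possibly all of the same gene. It had 106.1 in DNR Tregs, below the floor, and 194.4 in WT Tregs, which made it at least 1.75-fold lower. The log2 ratios were 0.58 and -0.81, both past the probe-set SD of 0.39 but of opposite sign, and the mean over both was -0.11. All 4 signals were under 2 times the floor.

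Srgn encodes the core protein of serglycin. Its probe set (1417426_at) had 82267 in DNR Tregs and 59594 in WT Tregs, a 1.38-fold higher signal. The log2 ratio of 0.47 was little more than the probe-set SD of 0.39. It ranked 1205 from the top of those 9282 genes. The proteoglycan that stores granzymes thus had a fold of 1.38, against 7.46 for the granzyme B gene. These folds come from unlike signals. Srgn was at 742 times the floor in DNR and 537 times in WT Tregs, and Gzmb at 121 and 16.2 times. Whether a fold is compressed at so high a signal was not tested.

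Nkg7 encodes a small membrane protein of the granule that is needed for its release. Nkg7 (1450753_at) had 1009 in DNR Tregs and 496.1 in WT Tregs, 2.03-fold higher and thus just past the threshold. Of 1917 genes with a mean signal between 443.6 and 887.2, 58 (3.03%) were at least 2-fold higher.

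Ctsw encodes the cysteine protease cathepsin W (lymphopain) of cytotoxic lymphocytes. It had the lower signal on the DNR array, unlike Gzma, Gzmb, Gzmk, Nkg7 and Srgn. Its probe set (1422632_at) had 310.4 in DNR Tregs and 1354 in WT Tregs, a 4.36-fold lower signal with a log2 ratio of -2.12. Both signals were above the floor, by 2.80-fold for DNR and 12.2-fold for WT Tregs. With signals raised to the floor it ranked 15 from the bottom among all genes measured, and 11 from the bottom of the 9282. In its range of mean signal, 72 of 1917 genes (3.76%) were at least 2-fold lower.

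**Figure D2:**
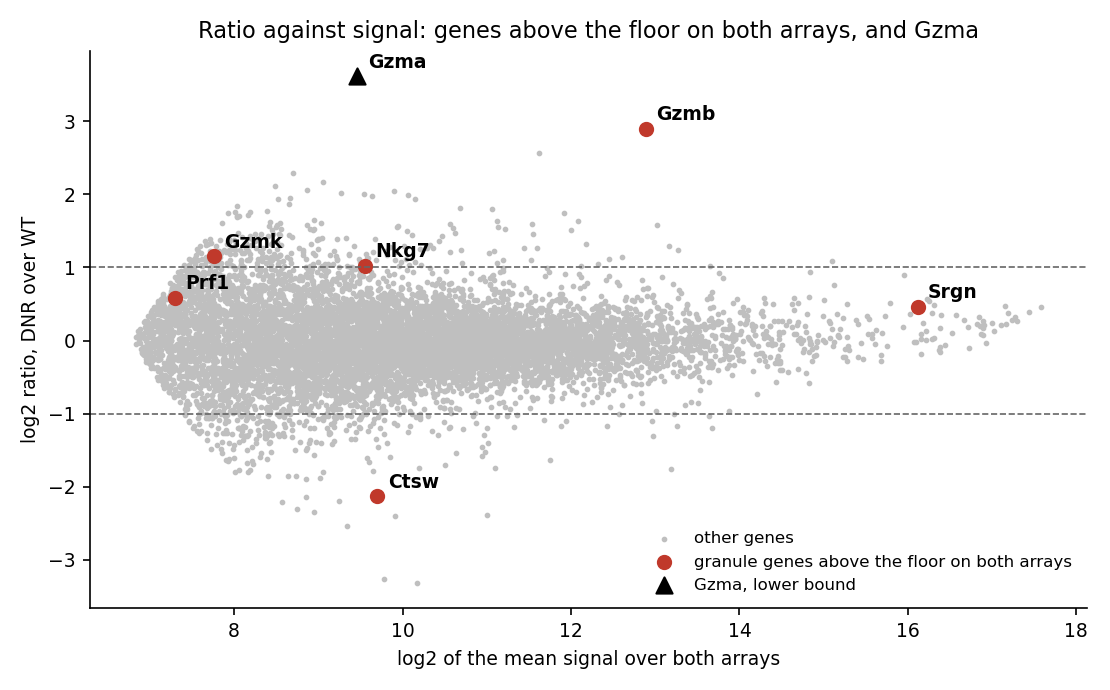
Log2 ratio of DNR over WT against log2 of the mean signal over both arrays, for the 9282 genes that exceeded the floor in both samples (grey; granule genes in red) and for Gzma as a lower bound (black triangle). Dashed lines mark 2-fold. Gzmb stands at 2.90 where few genes of like signal pass 2-fold, Ctsw at -2.12, and Srgn, Prf1, Nkg7 and Gzmk lie between 0.47 and 1.16.

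Under the 7 other settings that apply to single genes (3 floors, 2 scalings, the mean over probe sets, and no probe sets that can bind several transcripts), Gzmb kept a log2 ratio between 2.90 and 2.94, Ctsw between -2.12 and -2.08 and Nkg7 between 1.02 and 1.07. Gzma was at least 2-fold higher in each of the 6 settings that keep its probe set, and Gzmk in 6 of 7. Srgn ranged from 0.41 to 0.51 and Prf1 from -0.11 to 0.63. For Gzmb, Ctsw, Nkg7 and Srgn only the 2 scalings could change the value. Each of these genes has 1 probe set, not of the kind that can bind several transcripts, and exceeded every floor on both arrays.

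**Figure D3:**
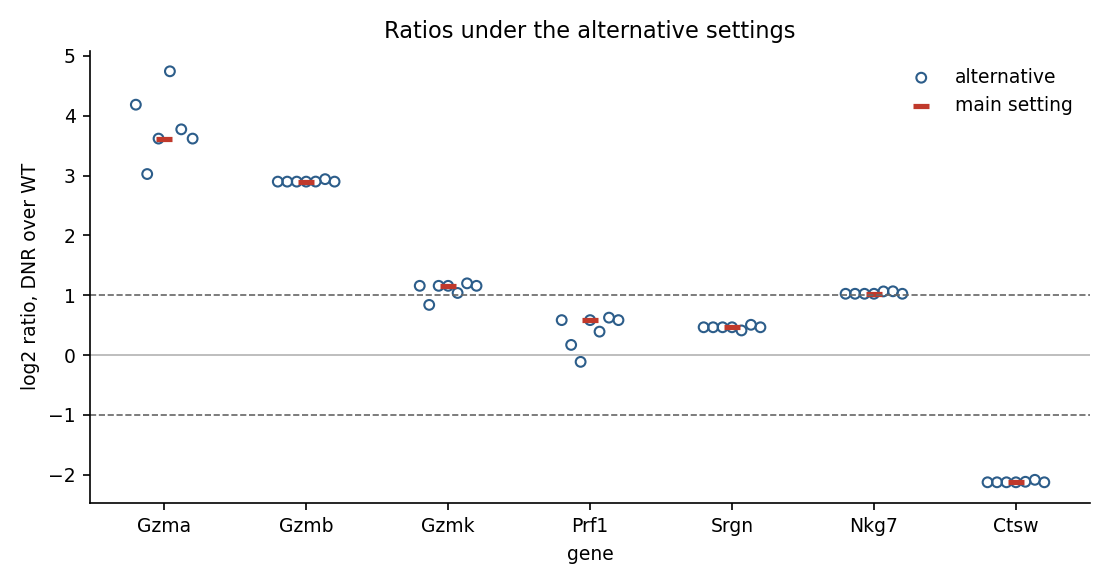
Log2 ratio of DNR over WT for each measured gene in the main setting (red bar) and in the alternative settings (open circles, spread sideways for visibility), with 2-fold dashed. Gzmb, Nkg7, Srgn and Ctsw, whose values only the 2 scalings could change, hardly move. Gzma moves with the floor between 3.03 and 4.74, and Prf1 crosses 0.

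The genes lie in several places of the genome (RefSeq annotation of GRCm38.p6). Gzma and Gzmk are neighbours on chromosome 13, and Gzmb stands at the end of a row of granzyme genes on chromosome 14, next to Gzmc. Prf1, Srgn and Gzmm are on chromosome 10, Nkg7 on chromosome 7 and Ctsw on chromosome 19. Gzmc, the only one of 6 other granzyme genes above the floor, had 163.5 in DNR Tregs and 125.6 in WT Tregs, 1.30-fold higher, while Gzmd, Gzme, Gzmf, Gzmg and Gzmn were below the floor on both arrays. Of the 3 nearest protein-coding genes on each side of the 8 genes, with the 8 genes themselves left out (Gzma and Gzmk, both higher, are each other's neighbours), 24 were measured. Of these 24, beside 4.0% higher and 2.93% lower over all genes, 1 was at least 2-fold higher (Hcn2 near Gzmm, at least 2.86-fold) and 1 at least 2-fold lower. The lower one was Ccdc85b, near Ctsw, with 143.7 in DNR Tregs and 449.3 in WT Tregs, 3.13-fold lower.

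The machinery that makes, activates and releases granules had a share of genes past 2-fold near that of all genes. Over 4 lists (granzyme activation and inhibition, granule transport and release, secretory lysosome proteins, and the synthesis of the chondroitin sulfate chains of serglycin), 57 genes were measured, of which 2 were at least 2-fold higher and 2 at least 2-fold lower on the DNR array (7.02% in all, where 4.0% of all genes measured were higher and 2.93% lower). Of the 57 genes, 33 were higher and 24 lower, and their median log2 ratio was 0.06, against 0.01 for all genes. Among 7 genes of activation and inhibition, 5 were higher and 2 lower. Ctsh, a cathepsin that can activate granzyme B, had 160.9 in DNR Tregs and 370.0 in WT Tregs, 2.30-fold lower. Its second probe set was at 1.17 in the other direction. Ctsc, the dipeptidyl peptidase that activates granzymes, had 3191 in DNR Tregs and 3481 in WT Tregs. Serpinb9, which inhibits granzyme B inside the cell that makes it, had 929.7 in DNR Tregs and 499.8 in WT Tregs, a log2 ratio of 0.90, under 2-fold. Serpinb6b, another intracellular serpin, was at 0.61.

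Of the 20 genes of granule transport and release, 10 were higher and 10 lower, and none passed 2-fold, a count that is not far from the 4.0% and 2.93% of all genes in so short a list. Rab7, a GTPase of late endosomes, had 3782 in DNR Tregs and 3787 in WT Tregs, and Vamp8, a SNARE of granule fusion, had 3946 in DNR Tregs and 3377 in WT Tregs. The secretory lysosome list had 18 measured genes, 8 higher and 10 lower. Ctsl, a lysosomal cathepsin, was 2.53-fold lower (391.9 in DNR Tregs, 992.4 in WT Tregs) and Galc, which degrades galactosylceramide, was 2.28-fold higher (344.1 in DNR Tregs, 150.9 in WT Tregs). In the chondroitin sulfate list of 12, 10 were higher and 2 lower, with a median log2 ratio of 0.21. B3galt6, a galactosyltransferase of the linker, was 2.14-fold higher, but both of its other probe sets were slightly lower (-0.24 and -0.14).

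Among the regulators of cytotoxic genes, 2 of 21 measured genes were at least 2-fold higher and none was at least 2-fold lower, beside 4.0% and 2.93% of all genes measured. The median log2 ratio was -0.06. Tbx21, which encodes T-bet, a T-box factor that drives granzyme B and perforin in cytotoxic T cells, had 731.0 in DNR Tregs and 282.6 in WT Tregs, 2.59-fold higher. Prdm1, which encodes Blimp-1, a factor of effector T cells, had 689.8 in DNR Tregs and 277.3 in WT Tregs, 2.49-fold higher. Eomes, a T-box factor that induces perforin in CD8 T cells, had 359.8 in DNR Tregs and 415.7 in WT Tregs. Runx3, which acts with these factors in CD8 T cells, was at 0.50, Id2 at 0.80, and the Smad genes at -0.58 (Smad2), 0.32 (Smad3) and -0.45 (Smad4).

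**Figure D4:**
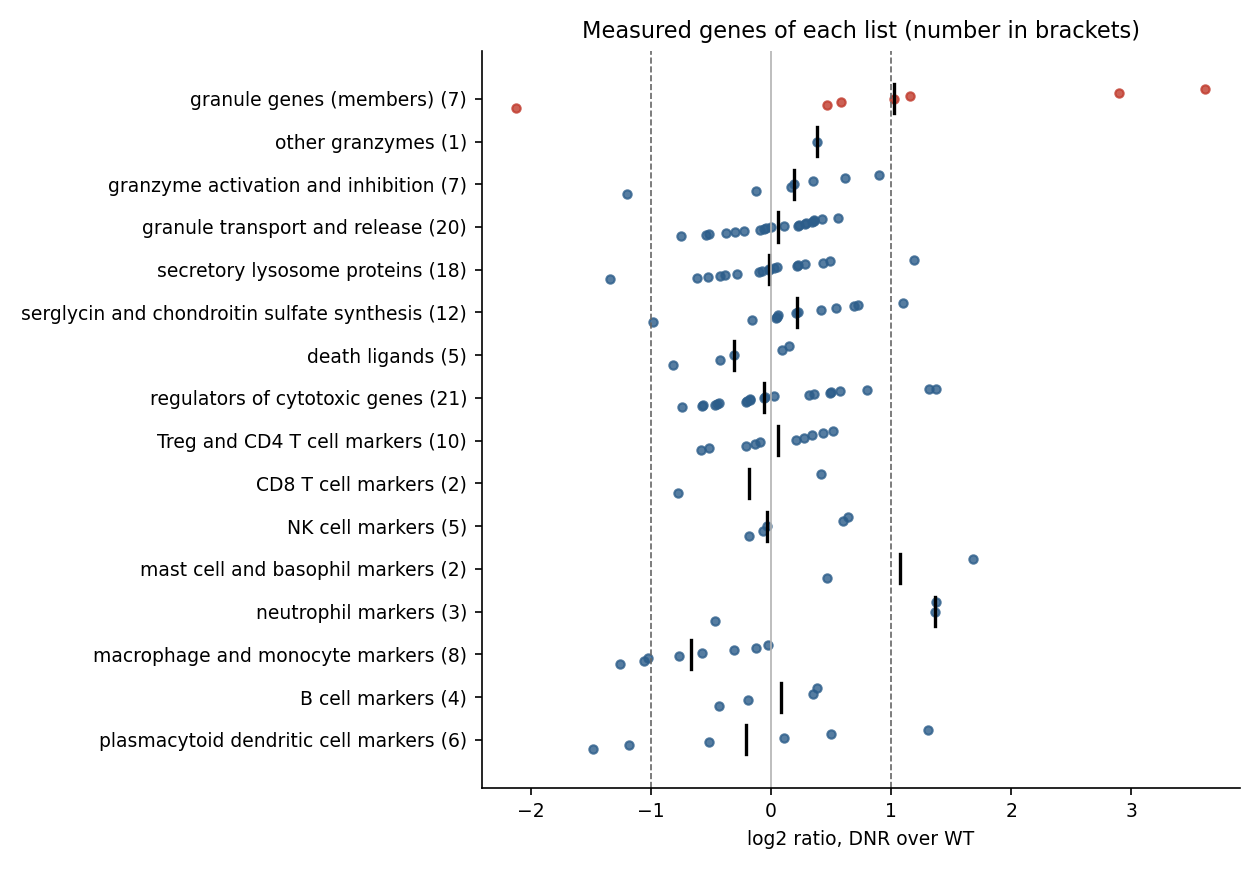
Log2 ratio of DNR over WT of each measured gene, by list, with the number of genes in brackets, list medians as black bars and 2-fold as dashed lines. The 7 measured granule genes spread from -2.12 to 3.62, whereas the transport list stays within 2-fold throughout and the macrophage markers all lie below 0.

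The nearest ratios were sought over these 2 arrays and the 9282 genes, with clone names and predicted genes left out. Gzmb had the highest ratio, so the genes nearest to it are the next highest ones. They were Ccl5, a chemokine of effector T cells (5.94-fold higher, log2 ratio 2.57), Aurkb, a mitotic kinase (4.88-fold), and Baiap3, an exocytosis protein related to the Munc13 family (4.49-fold). Those nearest to Ctsw were the sialyltransferase gene St8sia1 (4.4-fold lower), the surface protein gene Cd24a (4.57-fold) and the ubiquitin ligase gene Smurf1 (4.62-fold). A ratio over 2 arrays is a coarse measure of likeness.

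Markers of other cell types that hold cytotoxic granules were read beside these values. Of the 2 CD8 T cell markers, Cd8a had 197.6 in DNR Tregs and 148.5 in WT Tregs and Cd8b1 had 171.3 in DNR Tregs and 294.0 in WT Tregs, so their signals summed to 368.9 in DNR and 442.5 in WT Tregs. Cd8a had 3 other probe sets above the floor, with log2 ratios from -0.19 to 0.15, of which 1 went the same way. A sum over probe sets is dominated by the brightest ones and does not measure a share of cells. Of 10 NK cell markers on the array, 5 were below the floor on both arrays, among them Klrc1, Klra7 and Klre1, and all 10 summed to 2279 in DNR and 1968 in WT Tregs. Tyrobp and Fcer1g, which myeloid cells also use, were nearly equal in both genotypes, with log2 ratios of -0.07 and -0.04. Ncr1, the NK receptor NKp46, had 167.8 in DNR Tregs and 9.61 in WT Tregs, at least 1.51-fold higher, and Klrd1 had 284.4 in DNR Tregs and 182.7 in WT Tregs.

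Mast cells and basophils also hold serglycin and proteases. Of 9 markers, 7 were below the floor on both arrays, Cpa3, Mcpt8 and Fcer1a included, and all 9 summed to 702.4 in DNR and 380.8 in WT Tregs. Gata2 was above the floor on the DNR array alone, at least 3.22-fold higher. Neutrophil markers had 3 of 10 above the floor, with Ngp (287.3 in DNR Tregs, 37.7 in WT Tregs) and S100a8 (285.4 in DNR Tregs, 47.1 in WT Tregs) higher and Elane, the only one above the floor on both arrays, lower (172.6 in DNR Tregs, 238.1 in WT Tregs), and a sum of 1005 in DNR and 672.7 in WT Tregs. All 8 macrophage and monocyte markers measured had less signal in DNR Tregs, with a sum of 4026 in DNR and 5899 in WT Tregs. At least 2-fold lower were 3 of them, C1qa by 2.39-fold, C1qc by 2.08-fold and Vcam1 by 2.04-fold, while C1qb had a log2 ratio of -0.02. Over all genes measured 4.0% were at least 2-fold higher and 2.93% lower, shares that stand beside the other lists here too. Plasmacytoid dendritic cell markers went both ways (3 of 6 higher), with Cox6a2 2.80-fold lower, Ccr9 2.27-fold lower and Klk1 at least 2.47-fold higher. The other probe sets above the floor were at -0.51 and -0.45 for Ccr9 and at -0.01 for Klk1. Of 7 B cell markers 4 were measured, and none passed 2-fold, a count that says little in so short a list. Cd79b had 868.6 in DNR Tregs and 666.4 in WT Tregs, and Ighm 19368 in DNR Tregs and 15236 in WT Tregs. Ms4a1 (76.4 in DNR Tregs, 126.4 in WT Tregs) and Blk (86.1 in DNR Tregs, 149.6 in WT Tregs) were lower, both below the floor in DNR Tregs. The part of these cells in the granule gene signals was not tested.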

How the data were processed

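Total RNA of sorted splenic Tregs was biotin-labelled and hybridised to Affymetrix mouse 3′ arrays, 1 array per genotype. The deposited signal intensities are MAS5 values of the authors, according to the submitters' processing notes (per the labels). Its version and scaling are not stated there. The table lists 45101 probe sets, and 64 controls were left out. An annotation of the platform gave 1 gene to 34957 of the other 45037, several genes to 920 and none to 9160.

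Signals were raised to a floor, log2 was taken, and the brightest probe set stood for a gene. The threshold was 2-fold. Background subtraction and scaling in MAS5 make low signals noisy, and a fold near the floor is the least certain. Of 172 list genes in 15 lists, 156 had a named probe set. The members and lists were chosen with earlier results of these data known. The rule for named genes took all 8 members, up to 4 genes per list past 2-fold (or the 2 brightest), and the 3 genes with ratios nearest to Gzmb and to Ctsw. Clone names and predicted genes were left out of the nearest genes. Other list genes and neighbours are named after their values were seen. With 1 array per genotype there was no test, and precision is limited by the number of arrays. The procedure was tested on simulated data. Alternatives were 3 floors, 2 scalings, 2 probe set rules and thresholds of 1.5-fold and 3-fold. Python 3.11.15, numpy 2.4.6, pandas 2.3.3 and matplotlib 3.10.9 were used.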

Additional observations from a re-analysis of the deposited data

How the results depend on the processing

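The count of granule genes at least 2-fold higher stayed between 3 and 4 under every alternative floor, scaling and probe set rule, and that of genes at least 2-fold lower was 1 throughout. Only the 2 scalings could change the values of Gzmb, Nkg7, Srgn and Ctsw, so part of this stability follows by construction. At a threshold of 3-fold 2 genes were higher. Gzma, whose WT signal is below the floor, had a log2 ratio of 4.18 under a 40th percentile floor, 3.03 under a 60th percentile floor and 4.74 unfloored, by construction. It had no value once probe sets able to bind several transcripts were dropped. Prf1 was at 0.17 under a 60th percentile floor, and at -0.11 by the mean over its probe sets. Over the settings, 67 of 73 values moved by less than the probe-set SD of 0.39, or by less than 1.5 times for counts. Many of these were fixed by construction, as said above. Over all genes, 477 were higher and 350 lower by 2-fold in the main setting, against 1029 and 550 under a 40th percentile floor, 250 and 246 under a 60th percentile floor, and 3621 and 2658 unfloored. No paired analysis was possible because there was 1 array per genotype.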

Other observations

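Death ligands are another route by which T cells kill. All 5 genes were above the floor on both arrays, 2 were higher and 3 lower on the DNR array, none by 2-fold, with a median log2 ratio of -0.31. With 4.0% of all genes measured higher by 2-fold and 2.93% lower, none of 5 says nothing particular about this list. Fasl, the ligand of the death receptor Fas, had 906.1 in DNR Tregs and 1122 in WT Tregs. Lta, lymphotoxin alpha, had 1070.5 in DNR Tregs and 1882 in WT Tregs, and Ltb, lymphotoxin beta, had 20763 in DNR Tregs and 27969 in WT Tregs. Tnf was at 0.15 and Tnfsf10, which encodes TRAIL, at 0.09.

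A probe set that the annotation gives to both Gzmd and Gzme, and which therefore names neither, had 65.6 in DNR Tregs and 48.4 in WT Tregs, below the floor on both arrays. The single probe set of Gzme had 3.22 in DNR Tregs and 68.6 in WT Tregs, also below the floor on both arrays.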
